A study of Danio rerio with 12 samples.

Results

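The JAK, STAT and SOCS genes were described in 12 RNA-seq libraries of whole zebrafish larvae of wild-type genotype, aged 4 days post fertilisation. They were the 9 table rows named jak1, jak2a, jak2b, stat1a, stat1b, stat3, socs1a, socs3a and socs3b, chosen by name out of 44667 gene and locus rows. The names were chosen with earlier results of these data known. Larvae of the group PFOS20 were exposed to PFOS at 20 mg/L, those of OBS20 and OBS30 to OBS at 20 and 30 mg/L, and the control larvae were left untreated, with 3 libraries a group. PFOS is perfluorooctane sulfonate, a legacy surfactant, and OBS is a fluorinated surfactant used in its place, whose sulfonate sits on a benzene ring joined through oxygen to a branched, unsaturated fluorocarbon chain. The labels give neither the start and length of the exposure nor whether the control received a vehicle. They do not say how many larvae a library holds or whether replicates were separate clutches, so p-values measure only the spread between these libraries. All values are TPM, a transcript level corrected for transcript length and scaled so that each library sums to 1000000, so a level is relative to the other RNA of the same library. In RNA from whole larvae, fewer cells of a type and less RNA per cell cannot be told apart.

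A cytokine or hormone that binds its receptor brings together Janus kinases (JAK), which phosphorylate each other, the receptor and STAT proteins. Phosphorylated STAT proteins pair, enter the nucleus and switch on target genes, among them the SOCS genes. SOCS proteins bind receptors and JAKs and shut the signal off, so a SOCS transcript is both a product and a brake of the pathway. Zebrafish kept pairs of several of these genes from the genome duplication of teleost fish, here jak2a and jak2b, stat1a and stat1b, and socs3a and socs3b. The mRNA level of a kinase or STAT says nothing of its phosphorylation, which was not measured.

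The median row of a library lay at 1.90 to 2.33 TPM in 9 libraries, and at 1.80, 1.57 and 1.27 TPM in PFOS20 replicate 3, PFOS20 replicate 2 and OBS20 replicate 3. OBS20 replicate 3 stood apart, with 23942 rows at 1 TPM or more against 25775 to 28432 in the other 11 libraries, and with 17.6% of its TPM in ribosomal protein genes against 12.8% to 16.2%. It held the lowest value of stat3, jak1, stat1a, jak2b and socs3b of all 12 libraries, and results that rest on it are also given without it. The share of TPM from mitochondrial genes was 9.95% to 10.6% in PFOS20, 7.42% to 8.40% in OBS20, 8.37% to 8.86% in OBS30 and 7.28% to 8.23% in control.

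The SOCS3 genes socs3a and socs3b were higher in PFOS20 and OBS30 larvae and socs1a in PFOS20 larvae, while the kinase genes, stat1a and stat3 did not pass the test. In PFOS20, 4 of the 9 genes were called higher than in control (socs3a, socs3b, socs1a and stat1b) and 0 lower, in a comparison that called 6.35% of the 30674 rows tested higher and 11.9% lower. In OBS30, 3 of the 9 were called higher (socs3a, socs3b and stat1b) and 0 lower, where 4.73% of all rows were called higher and 3.7% lower. In OBS20, limma called 0 of the 9 against control, where 0.681% of all rows were called higher and 0.805% lower, and 1 gene (socs3a) had an unadjusted p under 0.05. A gene counts as called when its limma test on log2(TPM + 1) gave a p under 0.05 after Benjamini-Hochberg adjustment over all rows tested. The median log2 change of the 9 genes was 0.61 in PFOS20, -0.05 in OBS20 and 0.58 in OBS30, beside -0.13, -0.08 and 0.02 for all rows tested. All 9 genes passed the filter of 1 TPM in at least 3 libraries, but stat1b passed it only through the 6 PFOS20 and OBS30 libraries, so its calls against control are no support; without it, 3 of the other 8 were called higher in PFOS20 and 2 of 8 in OBS30. The 3 exposures share the control libraries, so their results are not independent of each other. Since the 9 genes were chosen with earlier results of these data known, their counts beside the shares of all rows are descriptions and no support.

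**Figure D1:**
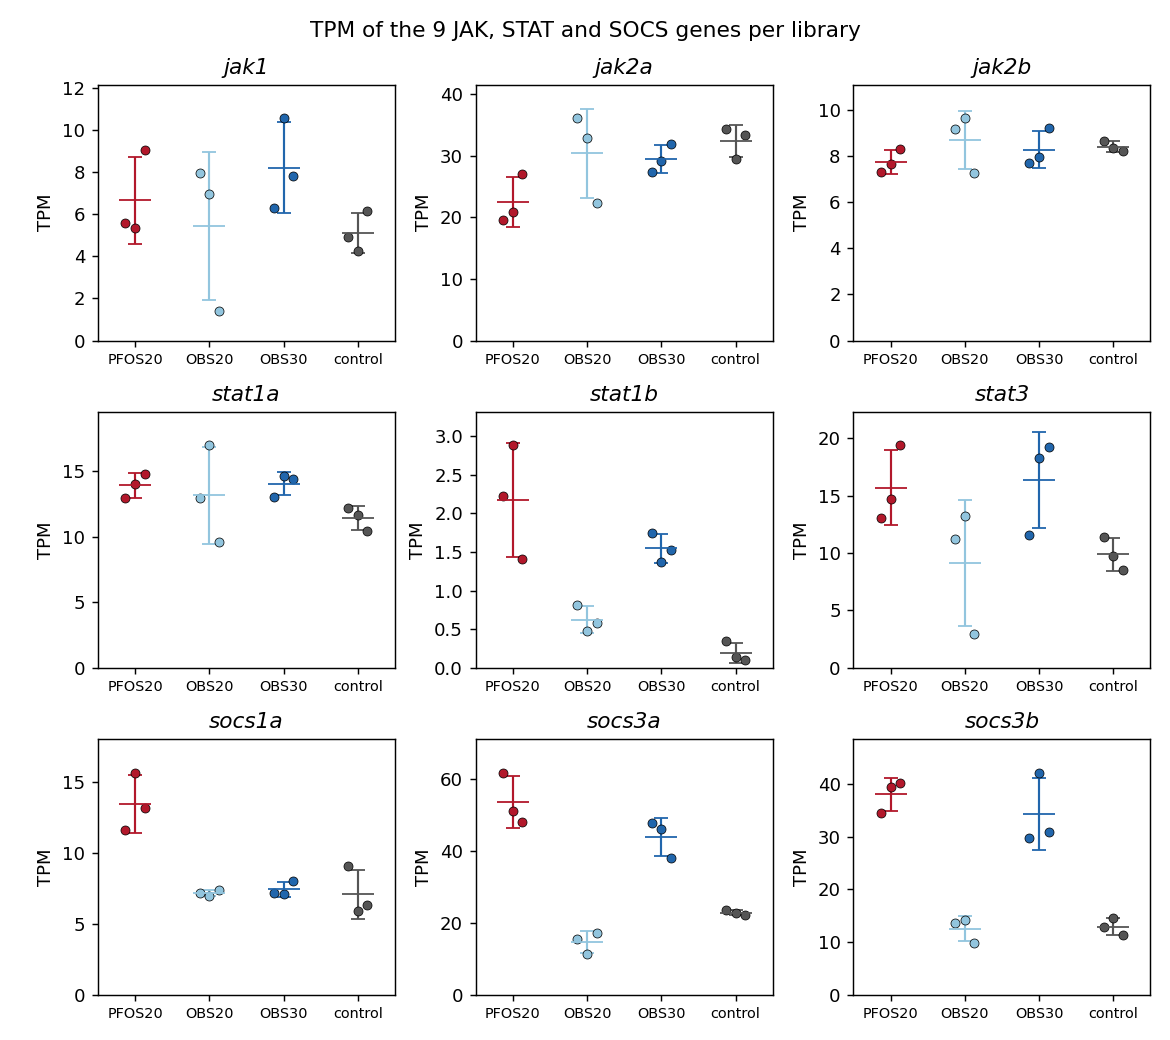
TPM of each of the 9 genes (y axis, from 0, a scale for each gene) in the 4 groups; points are libraries, the long bar is the mean and the whiskers are 1 SD (n = 3). socs3a and socs3b are high in PFOS20 and OBS30, socs1a in PFOS20 alone, and OBS20 replicate 3 is the low point of jak1 and stat3.

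The inhibitor socs3a (ENSDARG00000025428) encodes a SOCS protein that in mammals binds receptors of the gp130 group and turns off STAT3. Its level was 61.7, 51.1 and 47.9 TPM in PFOS20, 15.5, 11.4 and 17.1 TPM in OBS20, and 47.8, 45.9 and 37.9 TPM in OBS30, against 23.4, 22.7 and 22.1 TPM in control. Every PFOS20 and OBS30 library lay above every control library, and every OBS20 library lay below every control library. The log2 change was 1.19 ± 0.15 in PFOS20 (SE, adjusted p = 0.00074) and 0.91 ± 0.15 in OBS30 (adjusted p = 0.0041), and both were called. In OBS20 it was -0.62 ± 0.15 with adjusted p = 0.093, which missed the threshold although the groups did not overlap, as they did not for 15% of all rows in that comparison. With median-of-ratios scaling the OBS30 change was 0.88 with adjusted p = 0.055.

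The second copy, socs3b (ENSDARG00000026611), reached 34.4, 39.3 and 40.2 TPM in PFOS20, 13.6, 14.3 and 9.83 TPM in OBS20, and 29.8, 42.1 and 30.8 TPM in OBS30, against 12.9, 14.5 and 11.3 TPM in control. The PFOS20 and OBS30 libraries lay above every OBS20 and control library, and the OBS20 and control libraries overlapped. Its log2 change of 1.49 ± 0.17 in PFOS20 (SE, adjusted p = 0.00038) stood at rank 395 from the top of the 30674 rows. In OBS30 the change was 1.33 ± 0.17 (adjusted p = 0.00078, rank 591), and in OBS20 it was -0.05 ± 0.17 with a 95% interval of -0.42 to 0.33 (adjusted p = 0.96). A further row of 177 bases that the authors' annotation also assigns to SOCS3 reached at most 5.22 TPM and was not counted with the 2 copies.

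The gene socs1a (ENSDARG00000038095) encodes an inhibitor that in mammals blocks the kinase activity of JAKs, above all in interferon signalling. It was at 11.6, 15.6 and 13.1 TPM in PFOS20, at 7.19, 6.93 and 7.37 TPM in OBS20 and at 7.17, 7.09 and 8.03 TPM in OBS30, against 9.05, 5.88 and 6.31 TPM in control. Only the PFOS20 libraries stood clear of control. The log2 change was 0.85 ± 0.16 in PFOS20 (SE, adjusted p = 0.0051), 0.04 ± 0.16 in OBS20 (95% interval -0.32 to 0.39, adjusted p = 0.97) and 0.08 ± 0.16 in OBS30 (95% interval -0.27 to 0.43, adjusted p = 0.85).

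Among the transcription factors, stat1b (ENSDARG00000076182) was near the bottom of the measured range. Only the PFOS20 and OBS30 libraries brought it through the filter, so its calls against control are no support. Its level was 2.22, 2.88 and 1.41 TPM in PFOS20, 0.81, 0.47 and 0.58 TPM in OBS20 and 1.74, 1.37 and 1.53 TPM in OBS30, against 0.34, 0.14 and 0.10 TPM in control. None of the 3 exposed groups overlapped control, and OBS20 lay below every PFOS20 and OBS30 library. The log2 change was 1.39 ± 0.21 in PFOS20 (SE, adjusted p = 0.0015), 0.44 ± 0.21 in OBS20 (adjusted p = 0.50) and 1.097 ± 0.206 in OBS30 (adjusted p = 0.0076). At so low a level the size of the change depends on the constant added before the logarithm: with 0.1 TPM in place of 1 TPM the PFOS20 change was 2.98 and the OBS30 change 2.57.

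The gene stat1a (ENSDARG00000006266), was at 12.9, 14.0 and 14.8 TPM in PFOS20, at 12.9, 16.96 and 9.58 TPM in OBS20 and at 13.04, 14.6 and 14.4 TPM in OBS30, against 12.19, 11.7 and 10.5 TPM in control. The PFOS20 and OBS30 libraries lay narrowly above control, but the log2 changes of 0.26 ± 0.17 (SE, adjusted p = 0.32) and 0.27 ± 0.17 (adjusted p = 0.41) were not called. Separation of this kind was common, since the libraries did not overlap in 43.3% of all rows for PFOS20 and in 33.3% for OBS30. In PFOS20 stat1a was called higher with quantile normalisation (0.39, adjusted p = 0.017) and with median-of-ratios scaling (0.42, adjusted p = 0.012).

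The gene stat3 (ENSDARG00000022712) encodes the STAT of the interleukin 6, leptin and LIF receptors. It was at 13.04, 14.7 and 19.4 TPM in PFOS20, at 11.2, 13.3 and 2.93 TPM in OBS20 and at 11.6, 18.3 and 19.3 TPM in OBS30, against 11.4, 9.76 and 8.50 TPM in control. The PFOS20 and OBS30 libraries lay above control, but OBS20 replicate 3 was so low that the shared spread became wide. The log2 change was 0.61 ± 0.41 in PFOS20 (SE, adjusted p = 0.33), -0.30 ± 0.41 in OBS20 (adjusted p = 0.87) and 0.65 ± 0.41 in OBS30 (adjusted p = 0.41). Leaving out OBS20 replicate 3 cannot alter the size of the PFOS20 and OBS30 changes, whose adjusted p was then 0.051 and 0.068. Over all rows, the share called then rose from 18.3% to 28.4% in PFOS20 and from 8.42% to 12.9% in OBS30. The OBS20 change of stat3 without that library was 0.29 (adjusted p = 0.65).

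**Figure D2:**
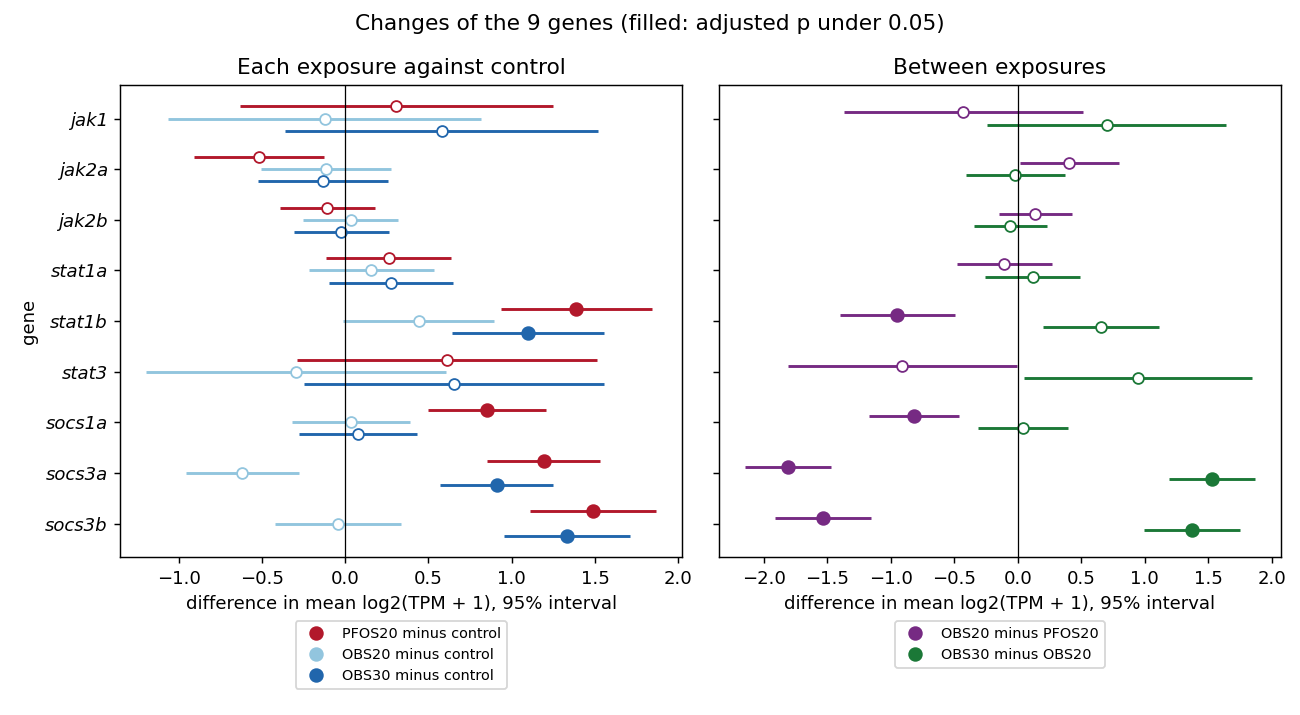
Difference in mean log2(TPM + 1) (x axis) for each gene (y axis), with 95% intervals from limma; the left panel sets PFOS20, OBS20 and OBS30 against control and the right panel sets OBS20 against PFOS20 and OBS30 against OBS20. Filled points passed an adjusted p of 0.05: the SOCS genes and stat1b in PFOS20 and, but for socs1a, in OBS30, and none in OBS20 against control.

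Of the 3 kinase genes, jak2a (ENSDARG00000104808), a copy of the gene for the kinase of the growth hormone, leptin and erythropoietin receptors, had the highest level. Its level was 19.5, 20.9 and 27.1 TPM in PFOS20, 36.1, 32.9 and 22.3 TPM in OBS20 and 27.4, 29.2 and 31.9 TPM in OBS30, against 34.4, 29.6 and 33.4 TPM in control. The PFOS20 libraries all lay below control, and the log2 change of -0.52 ± 0.18 (SE) narrowly missed the threshold (adjusted p = 0.065). It passed with quantile normalisation (-0.42, adjusted p = 0.021), with median-of-ratios scaling (-0.36, adjusted p = 0.025) and among rows with a mean of at least 5 TPM (adjusted p = 0.047). It also passed in a fit of the 6 PFOS20 and control libraries alone (adjusted p = 0.046), without OBS20 replicate 3 (adjusted p = 0.014) and without PFOS20 replicate 4 (-0.65, adjusted p = 0.036). Leaving out OBS20 replicate 3 cannot alter the change itself, and 28.4% of all rows were then called in PFOS20, against 18.3%. The jak2a change was not called in 4 other alternatives of the processing and in 10 of 12 fits with 1 library left out, with adjusted p up to 0.20. Markers of red cells, whose precursors use this kinase for erythropoietin signalling, were lower in the same libraries: 8 of 10 tested were called lower in PFOS20, beside 11.9% of all rows, and 0 higher, and their summed level was 2034 to 2563 TPM in PFOS20, 3877 to 4905 TPM in OBS20, 3158 to 5044 TPM in OBS30 and 4146 to 4284 TPM in control. The 8 became 5 without PFOS20 replicate 2, control replicate 3 or control replicate 4. Lower markers were not particular to red cells, since 9 of 10 neuron markers tested were also called lower in PFOS20. The part of either cell type in the jak2a level was not tested.

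Its copy jak2b (ENSDARG00000018882) was at 7.31 to 8.30 TPM in PFOS20, 7.26 to 9.65 TPM in OBS20 and 7.71 to 9.22 TPM in OBS30, against 8.21 to 8.66 TPM in control. All log2 changes against control were between -0.11 and 0.03, and the intervals reached no further than -0.39 and 0.32.

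The gene jak1 (ENSDARG00000020625) encodes the kinase shared by the interferon receptors and the gp130 receptors. It was at 5.60, 5.34 and 9.04 TPM in PFOS20, at 7.95, 6.96 and 1.42 TPM in OBS20 and at 6.28, 10.6 and 7.81 TPM in OBS30, against 4.91, 4.26 and 6.14 TPM in control. OBS30 lay above control without overlap, yet no change was called (log2 change 0.31 ± 0.43 in PFOS20, -0.12 ± 0.43 in OBS20 and 0.58 ± 0.43 in OBS30, SE, adjusted p = 0.66, 0.95 and 0.50). These values are uncertain, because the authors' assembly holds a second, unnamed locus of 6739 bases that the annotation assigns to the same JAK1 protein, between which reads may be split.

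That assembled locus was at 10.5, 13.4 and 10.4 TPM in PFOS20, 3.57, 6.30 and 5.04 TPM in OBS20 and 8.56, 8.17 and 9.97 TPM in OBS30, against 6.24, 5.75 and 4.39 TPM in control. It was called higher in PFOS20 (log2 change 0.95 ± 0.19, SE, adjusted p = 0.0072) and missed the threshold in OBS30 (0.62 ± 0.19, adjusted p = 0.075). When both rows were summed, a choice made after seeing the data, JAK1 transcripts were at 16.1, 18.7 and 19.4 TPM in PFOS20, 11.5, 13.3 and 6.46 TPM in OBS20 and 14.8, 18.7 and 17.8 TPM in OBS30, against 11.2, 10.01 and 10.5 TPM in control. The summed level was called higher in PFOS20 (0.72, adjusted p = 0.037) and not in OBS30 (0.64, adjusted p = 0.094).

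Summed by role, the 3 SOCS genes together had a higher level in PFOS20 and OBS30 than in control. Their sum was 105 ± 3.36 TPM in PFOS20, 34.4 ± 1.86 TPM in OBS20 and 85.5 ± 9.19 TPM in OBS30, against 42.7 ± 2.86 TPM in control (SD, n = 3 each). The sum of the 3 STAT genes was 31.8 ± 3.68, 22.9 ± 8.97 and 32.0 ± 4.86 TPM in PFOS20, OBS20 and OBS30, against 21.5 ± 2.43 TPM in control. The 3 kinase rows together gave 36.9 ± 6.54, 44.6 ± 11.9 and 46.0 ± 4.04 TPM in PFOS20, OBS20 and OBS30, against 46.0 ± 3.27 TPM in control. There were thus 2.28 to 3.32 SOCS transcripts per kinase transcript in the PFOS20 libraries, 0.658 to 1.11 in OBS20 and 1.57 to 2.05 in OBS30, against 0.832 to 1.02 in control. The kinase rows leave out the assembled JAK1 locus, at 10.4 to 13.4 TPM in PFOS20 against 4.39 to 6.24 TPM in control. With that locus the kinase sums of PFOS20 and control would lie closer together. Per STAT transcript there were 2.85 to 3.82 in PFOS20, 1.06 to 2.62 in OBS20 and 2.18 to 3.21 in OBS30, against 1.90 to 2.08 in control, so OBS20 overlapped both OBS30 and control. These sums describe rows chosen by name and were not tested.

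**Figure D3:**
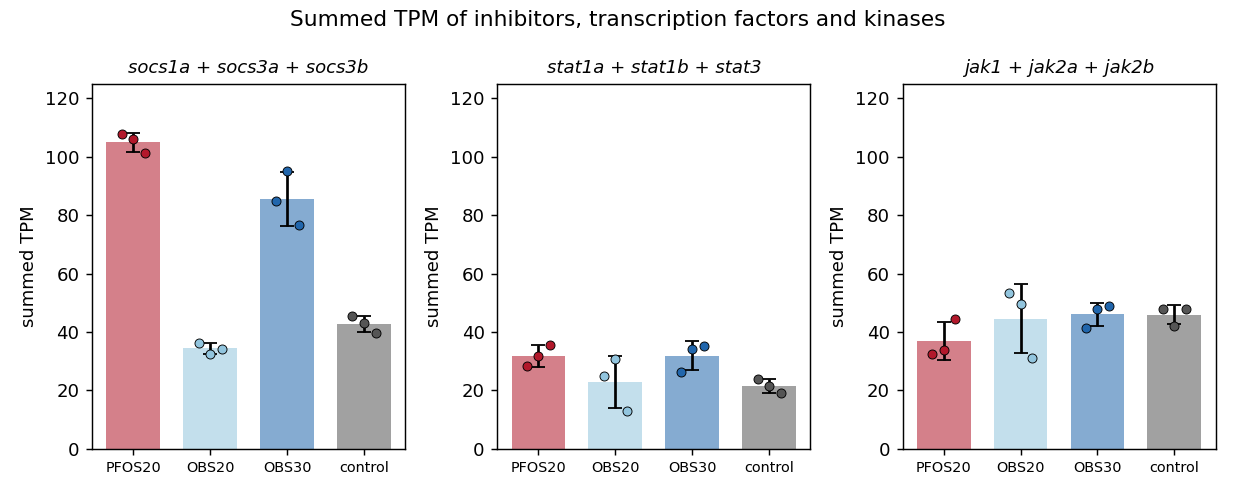
Summed TPM (y axis, from 0) of the 3 SOCS, the 3 STAT and the 3 JAK rows in the 4 groups; bars are means, whiskers 1 SD (n = 3) and points libraries. The SOCS sum is 105 TPM in PFOS20 and 85.5 TPM in OBS30, against 42.7 TPM in control, while the JAK sum is 36.9 and 46.0 TPM against 46.0 TPM. The JAK sum leaves out the assembled JAK1 locus, at 10.4 to 13.4 TPM in PFOS20 against 4.39 to 6.24 TPM in control.

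Within the pairs, both socs3 copies rose in PFOS20 and OBS30. The log2 ratio of stat1b to stat1a was higher than in control by 2.70 in PFOS20 and by 2.27 in OBS30, each with an exact two-sided permutation p = 0.1, the smallest that 3 against 3 libraries can give, and by 1.19 in OBS20 (exact p = 0.2). These ratios have 0.1 TPM added to both genes, and with 1 TPM added the differences were 1.13 in PFOS20, 0.82 in OBS30 and 0.29 in OBS20. Since stat1b passed the filter only through the PFOS20 and OBS30 libraries, its ratios to stat1a are no support for a change against control. The jak2b to jak2a ratio was higher by 0.42 in PFOS20 (exact p = 0.1), with jak2b at 23.5% to 27.2% of jak2 transcripts against 19.8% to 22.1% in control. The socs3a share of socs3 was 58.3% ± 5.18 in PFOS20, 53.7% ± 9.52 in OBS20 and 56.3% ± 4.82 in OBS30, against 63.9% ± 2.64 in control (SD, n = 3 each), and the socs3b to socs3a ratio differed from control with exact p = 0.2 in each exposure.

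At the matched dose of 20 mg/L, OBS20 larvae had lower levels than PFOS20 larvae of socs3a, socs3b, socs1a and stat1b. In this comparison, 3.92% of all rows were called lower and 5.85% higher, and 4 of the 9 genes were called lower and 0 higher. Those 4 were also the genes whose libraries did not overlap, as for 23.3% of all rows. socs3a differed by -1.81 ± 0.15 (SE, 95% interval -2.15 to -1.47, adjusted p = 0.00014), socs3b by -1.53 ± 0.17 (adjusted p = 0.00056), stat1b by -0.95 ± 0.21 (adjusted p = 0.016) and socs1a by -0.81 ± 0.16 (adjusted p = 0.010). The PFOS20 libraries enter both this comparison and the one with control. stat1b was under 1 TPM in every OBS20 and control library and passed the filter through the PFOS20 and OBS30 libraries, so its call adds no support here, and of the other 8 genes 3 were called lower. The stat1b and socs1a differences were less secure, with adjusted p = 0.11 and 0.065 in a fit of the 6 libraries alone, 0.077 and 0.053 without PFOS20 replicate 3, and, for stat1b, 0.058 without PFOS20 replicate 2 and 0.054 without OBS20 replicate 2. For the others the intervals of OBS20 minus PFOS20 were 0.02 to 0.79 for jak2a, -0.14 to 0.42 for jak2b, -0.48 to 0.27 for stat1a, -1.81 to -0.01 for stat3 and -1.37 to 0.51 for jak1, none of them called. jak2a was called higher in OBS20 than in PFOS20 without OBS20 replicate 3 (0.61, adjusted p = 0.016) and with median-of-ratios scaling (0.34, adjusted p = 0.042). The assembled JAK1 locus was lower in OBS20 than in PFOS20 by -1.07 ± 0.19 (SE, adjusted p = 0.0060). Both compounds carry a sulfonate, but they differ in the fluorinated part and in the benzene ring and oxygen link of OBS. These are the 2 compounds of the series, compared as 1 pair.

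Between the OBS doses, 30 against 20 mg/L, the socs3 copies separated most clearly. Of the 9 genes 2 were called higher and 0 lower, where 1.11% of all rows were called higher and 0.466% lower. socs3a differed by 1.53 ± 0.15 (SE, adjusted p = 0.0014) and socs3b by 1.38 ± 0.17 (adjusted p = 0.0034), and the socs3b call was lost in a fit of the 6 OBS libraries alone (adjusted p = 0.066). stat1b was higher in every OBS30 than in every OBS20 library without being called (0.66 ± 0.21, adjusted p = 0.18), where 16.8% of all rows did not overlap. stat3 differed by 0.95 ± 0.41 (adjusted p = 0.35), and by 0.37 without OBS20 replicate 3 (adjusted p = 0.56). For socs1a the difference was 0.04 with a 95% interval of -0.31 to 0.40.

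For the rest of the pathway, 7 lists of ligands, receptors, other JAK and STAT genes, other SOCS genes, other regulators, STAT3-linked targets and interferon response genes named 198 genes, of which 180 were found in the table and 109 were tested. These lists and the cell marker lists were chosen with earlier results of these data known. Their counts beside the shares of all rows are therefore descriptions and no support. In PFOS20, 31 of the 109 were called higher and 4 lower, beside 6.35% and 11.9% of all rows. In OBS20, 2 were called higher and 3 lower, beside 0.681% and 0.805%. In OBS30, 24 were called higher and 4 lower, beside 4.73% and 3.7%, but the 24 became 15 without OBS30 replicate 1, 12 without OBS30 replicate 3, 12 without control replicate 3 and 13 without control replicate 4. Calls fell over all rows too, since the 1450 rows called higher in OBS30 became 983, 859, 906 and 879 in these fits. The counts of single lists given below come from the same fits. The 4 called lower in PFOS20 became 10 without OBS20 replicate 3 and 2 without PFOS20 replicate 3 or control replicate 2, and the 4 in OBS30 became 2 without OBS30 replicate 3 or control replicate 2 and 1 without OBS30 replicate 4 or control replicate 3. In OBS20 the 2 called higher became 1 without OBS20 replicate 1 or control replicate 3, and the 3 called lower became 1 without control replicate 2. The median log2 change over the 109 was 0.23, -0.05 and 0.29 in PFOS20, OBS20 and OBS30, beside the -0.13, -0.08 and 0.02 of all rows. The KEGG JAK-STAT map, without the JAK, STAT and SOCS genes described first, gave a weaker shift. Of its 160 genes tested, 25 (15.6%) were called higher and 6 lower in PFOS20, where the 7 lists had 28.4% higher. In OBS30, 16 (10%) were called higher and 0 lower, where the lists had 22% higher. In OBS20, 2 were called higher and 0 lower. The map medians were 0.012, -0.101 and 0.155 in PFOS20, OBS20 and OBS30. The 16 ranged from 6 to 25 as each library was left out. Of the 109 genes, 10 were under 1 TPM in every control library and so passed the filter through other libraries. Among them were 3 of the 31 calls in PFOS20, 1 of the 2 in OBS20 and 2 of the 24 in OBS30. These counts are a lower bound. They leave out lepb and socs7, which reached 1 TPM in 1 control library (1.40 and 1.16 TPM) and also passed through exposed libraries.

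**Figure D4:**
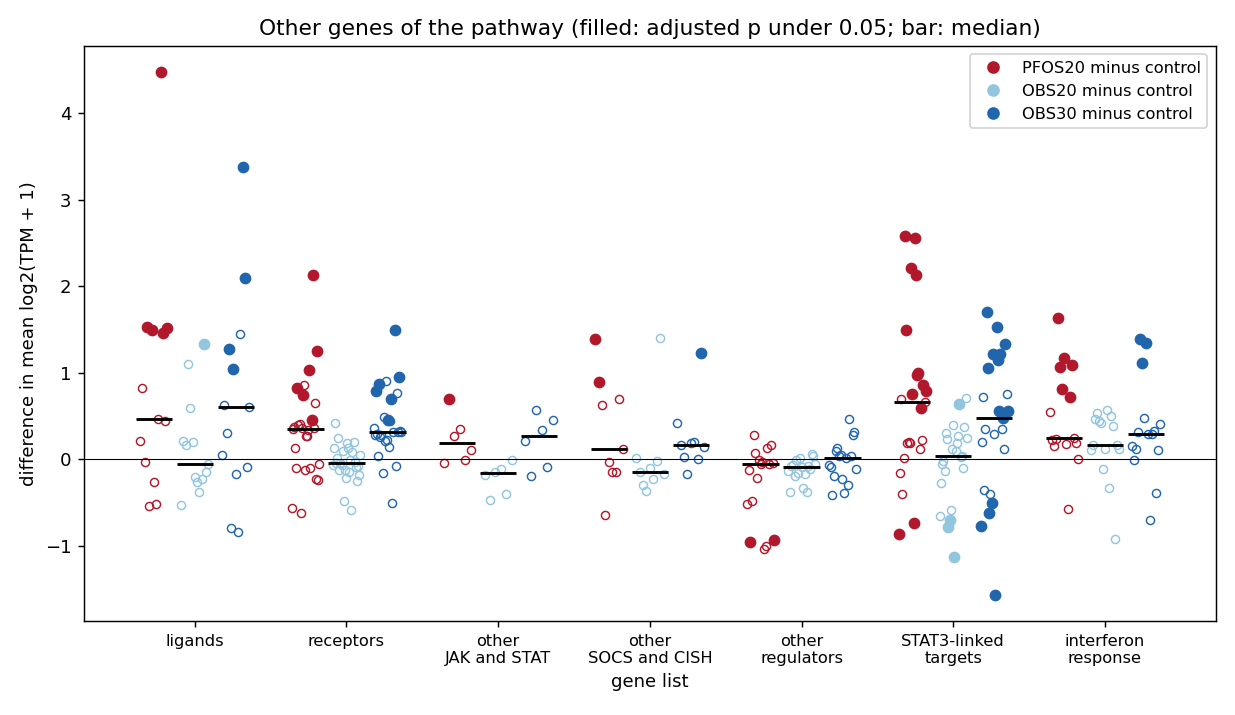
Difference in mean log2(TPM + 1) from control (y axis) of each tested gene of the 7 pathway lists (x axis), in PFOS20, OBS20 and OBS30; filled points passed an adjusted p of 0.05 and bars are list medians. The highest point is the ligand gene lepb in PFOS20 (4.47), which passed the filter only through PFOS20 and OBS30 libraries. The called genes lie mostly among ligands, receptors, STAT3-linked targets and interferon response genes. The lists were chosen with earlier results of these data known.

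Of 13 ligand genes tested out of 37 found, 5 were called higher in PFOS20, 1 in OBS20 and 4 in OBS30, and 0 lower in each. Of all rows, 6.35%, 0.681% and 4.73% were called higher. The leptin gene lepb, whose product signals through STAT3, was at 40.9, 42.4 and 40.6 TPM in PFOS20 and at 22.4, 23.8 and 12.4 TPM in OBS30, against 1.40, 0.52 and 0.89 TPM in control. In OBS20 it was at 0.90 and 1.25 TPM in 2 libraries and listed at 0 in the other. Growth hormone (gh1) and prolactin (prl), pituitary hormones that act through JAK2 and STAT5 in mammals, rose in PFOS20 by 1.53 ± 0.32 (adjusted p = 0.0081) and 1.46 ± 0.22 (adjusted p = 0.0018). In OBS30 gh1 rose by 1.27 ± 0.32 (adjusted p = 0.031) and prl by 2.098 ± 0.224 (adjusted p = 0.00023). The prl gene was the ligand called in OBS20 (1.33 ± 0.22, adjusted p = 0.014), with 2.05 to 2.69 TPM there against 0.25 to 0.55 TPM in control. It is 1 of 5 ligand genes that were under 1 TPM in every control library and passed the filter through other libraries, and such genes made up 3 of the 5 calls in PFOS20, 1 of 1 in OBS20 and 2 of the 4 in OBS30. Outside PFOS20 and OBS30, lepb reached 1 TPM only at 1.40 TPM in control and 1.25 TPM in OBS20. It too passed the filter only through the groups where it was high, so its calls are no support. Without OBS30 replicate 1 or 3, or control replicate 3 or 4, 2 ligands were called in OBS30, and in OBS20 0 were called without OBS20 replicate 1 or control replicate 3 or 4 and 2 without PFOS20 replicate 2.

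Among 26 receptor genes tested out of 42 found, 6 were called higher in PFOS20, 0 in OBS20 and 6 in OBS30, with 0 lower. Of all rows, 6.35%, 0.681% and 4.73% were called higher. The interleukin 4 receptor chain il4r.1 was at 30.2 ± 1.19 TPM in PFOS20, 7.29 ± 1.36 TPM in OBS20 and 19.3 ± 3.99 TPM in OBS30, against 6.18 ± 1.05 TPM in control (SD, n = 3 each). Its log2 change was 2.13 ± 0.17 in PFOS20 and 1.49 ± 0.17 in OBS30 (SE, adjusted p = 5.8e-05 and 0.00043). The LIF receptor chain lifrb, which feeds STAT3, rose by 1.25 ± 0.20 in PFOS20 (adjusted p = 0.0024) and 0.95 ± 0.20 in OBS30 (adjusted p = 0.015). The PFOS20 count rested on the scaling, with 14 called higher and 2 lower under quantile normalisation and 12 and 1 under median-of-ratios scaling, and it was 10 higher and 2 lower without OBS20 replicate 3. In PFOS20 1 receptor was called lower without PFOS20 replicate 4, and in OBS30 1 without OBS20 replicate 3. In OBS30 the 6 became 2 without OBS30 replicate 3, control replicate 3 or control replicate 4, and 3 without OBS30 replicate 4.

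Of 6 other JAK and STAT genes, stat4 was called higher in PFOS20 (0.70 ± 0.20, adjusted p = 0.031), and none in OBS20 or OBS30. Of 9 other SOCS genes, 2 were called higher in PFOS20, 0 in OBS20 and 1 in OBS30, beside 6.35%, 0.681% and 4.73% of all rows. The SOCS genes called were the CISH genes cish and cishb, whose product is an inhibitor induced by STAT5 in mammals, in PFOS20, and socs7 in OBS30 (1.23 ± 0.32, adjusted p = 0.041). The socs7 change was not particular to OBS30, since in OBS20 it was 1.40 ± 0.32 (adjusted p = 0.069). Its level was 1.89, 3.70 and 3.09 TPM in OBS20 and 2.76, 1.97 and 2.43 TPM in OBS30, against 0.26, 0.10 and 1.16 TPM in control. It passed the filter through exposed libraries, so its call is no support. cish was at 47.7, 71.3 and 60.0 TPM in PFOS20, 21.5, 23.5 and 21.5 TPM in OBS20 and 34.3, 26.0 and 29.3 TPM in OBS30, against 24.3, 21.1 and 20.5 TPM in control. Its log2 change was 1.39 ± 0.15 in PFOS20 (SE, adjusted p = 0.00028) and 0.42 ± 0.15 in OBS30 (adjusted p = 0.13). Of 17 other regulators, 2 were called lower in PFOS20, pias2, of the family of STAT inhibitors (-0.95 ± 0.29, adjusted p = 0.046), and trim8b (-0.93 ± 0.15, adjusted p = 0.0024), a share near the 11.9% of all rows called lower there. With both alternative scalings 5 of the 17 were called lower and 2 higher in PFOS20, and 6 were called lower without OBS20 replicate 3. The call of stat4 was lost without any 1 of PFOS20 replicates 3 and 4 and the control replicates, and that of socs7 in 6 of 12 such fits. The count of 2 regulators became 1 in 6 of 12.

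Of 23 genes tested that are linked to STAT3 in mammals, 11 were called higher and 2 lower in PFOS20, 1 higher and 3 lower in OBS20, and 10 higher and 4 lower in OBS30. This list too was chosen with earlier results of these data known, so its counts only describe it. Of all rows, 6.35% were called higher and 11.9% lower in PFOS20, 0.681% and 0.805% in OBS20, and 4.73% and 3.7% in OBS30. The 2 called lower in PFOS20 were 8.7% of the 23, under the share of all rows. The gene cebpb, for a transcription factor that regulates the acute phase response, was at 433 ± 54.8 TPM in PFOS20, 89.5 ± 20.5 TPM in OBS20 and 240.3 ± 70.4 TPM in OBS30, against 71.8 ± 10.2 TPM in control (SD, n = 3 each), and its log2 change was 2.58 ± 0.22 in PFOS20 and 1.70 ± 0.22 in OBS30 (SE, adjusted p = 6.5e-05 and 0.00077). The AP-1 subunit gene junba rose by 2.56 ± 0.19 in PFOS20 and 1.53 ± 0.19 in OBS30 (adjusted p = 3.2e-05 and 0.00064). The survival gene mcl1b rose in every exposure, by 1.00 ± 0.09 in PFOS20, 0.64 ± 0.09 in OBS20 and 1.22 ± 0.09 in OBS30 (adjusted p = 0.00011, 0.0057 and 2.6e-05), though its OBS20 call was lost with median-of-ratios scaling and in a fit of the 6 OBS20 and control libraries alone. Genes of proteins that the liver secretes in the acute phase in mammals varied. Haptoglobin (hp) fell by 0.74 ± 0.17 in PFOS20, 1.12 ± 0.17 in OBS20 and 1.57 ± 0.17 in OBS30 (adjusted p = 0.014, 0.0084 and 0.00026), and the alpha-2-macroglobulin-like gene a2ml fell by 0.86 ± 0.20 in PFOS20 and 0.77 ± 0.20 in OBS30 (adjusted p = 0.014 and 0.037). The fibrinogen chain gene fga was called lower in OBS20 (-0.78 ± 0.13, adjusted p = 0.015) and OBS30 (-0.62 ± 0.13, adjusted p = 0.016), and hamp, for the iron hormone hepcidin, was called higher in PFOS20 (0.75 ± 0.15, adjusted p = 0.0062). The OBS30 count of 10 became 6 without OBS30 replicate 1 or 3, without control replicate 3 or 4, and with median-of-ratios scaling. The counts called lower became 1 in PFOS20 without PFOS20 replicate 3, control replicate 2 or control replicate 3, 1 in OBS20 without control replicate 2 or with median-of-ratios scaling and 0 in a fit of the 6 OBS20 and control libraries alone, and, in OBS30, 2 without OBS30 replicate 3 or control replicate 2 and 1 without OBS30 replicate 4 or control replicate 3.

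**Figure D5:**
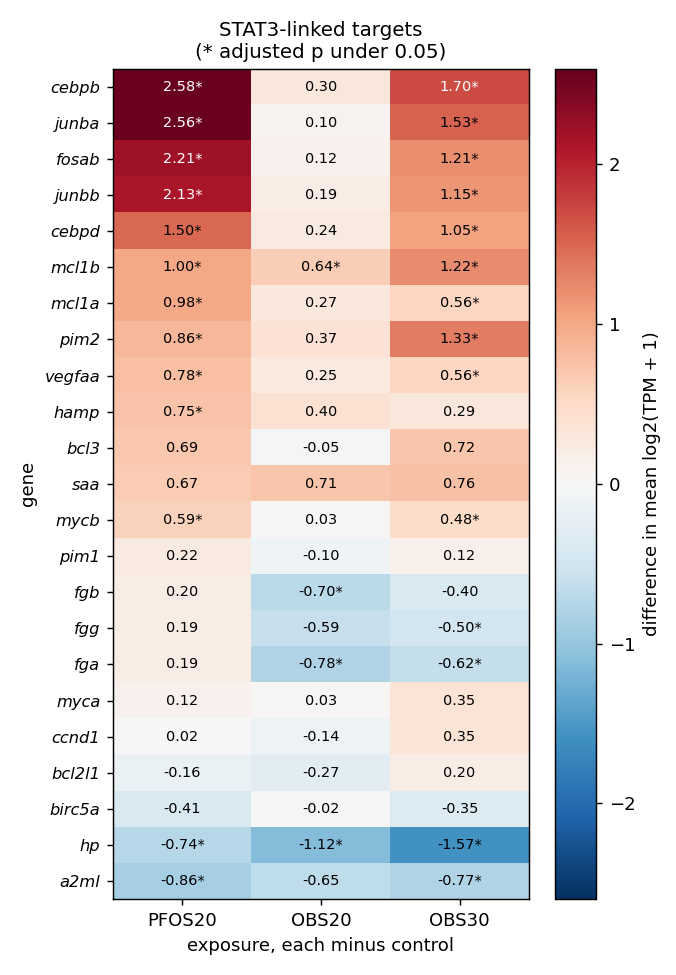
Difference in mean log2(TPM + 1) from control (colour and printed value) of the 23 STAT3-linked genes tested (rows, ordered by the PFOS20 change) in PFOS20, OBS20 and OBS30; stars mark an adjusted p under 0.05. cebpb at the top stands at 2.58 in PFOS20 and 1.70 in OBS30, and hp near the bottom is low in all 3. The list was chosen with earlier results of these data known.

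Liver cell markers had a lower summed level in the same libraries as hp, but not every marker fell. rbp4 was called higher in PFOS20 and OBS30, and ttr was at 49.8 ± 3.31 TPM in PFOS20 against 48.8 ± 3.32 TPM in control (SD, n = 3 each). Of 8 hepatocyte markers, 3 were called lower and 1 higher in PFOS20, 4 lower and 0 higher in OBS20, and 6 lower and 1 higher in OBS30, and 0 were at 0 in every library. Of all rows, 11.9% were called lower and 6.35% higher in PFOS20, 0.805% and 0.681% in OBS20, and 3.7% and 4.73% in OBS30. With median-of-ratios scaling 1 of the markers was called lower in PFOS20 and 1 in OBS20. In that scaling 0 were called higher in PFOS20 and 0 in OBS30, so both calls of rbp4 were lost. Their summed level was 5211 to 5296 TPM in PFOS20, 5213 to 5344 TPM in OBS20 and 4183 to 4857 TPM in OBS30, against 6210 to 7243 TPM in control. Their part in the levels of the secreted proteins was not tested.

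Of 46 interferon response genes listed, 42 were found and 15 passed the filter. Among those that did not were rsad2, mxa and ifih1. Of the 15, 6 were called higher in PFOS20, 0 in OBS20 and 3 in OBS30, with 0 lower. Of all rows, 6.35%, 0.681% and 4.73% were called higher. The 3 became 1 with replicate number as a block and among rows with a mean of at least 5 TPM. Without PFOS20 replicate 2, 1 interferon response gene was called lower in PFOS20 and 1 in OBS30. The interferon regulatory factor gene irf1b was at 9.31, 7.64 and 9.27 TPM in PFOS20, 4.12, 3.91 and 2.07 TPM in OBS20 and 9.07, 7.59 and 5.33 TPM in OBS30, against 1.50, 2.93 and 2.13 TPM in control. Its log2 change was 1.63 ± 0.25 in PFOS20 and 1.38 ± 0.25 in OBS30 (SE, adjusted p = 0.0018 and 0.0059). The ubiquitin-like gene isg15 rose by 1.17 ± 0.34 in PFOS20 and 1.34 ± 0.34 in OBS30 (adjusted p = 0.037 and 0.035), from a control level of 0.913 ± 0.336 TPM (SD, n = 3).

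Immune cell markers were mixed in the libraries in which the SOCS genes were high. Of all rows, 6.35% were called higher and 11.9% lower in PFOS20, 0.681% and 0.805% in OBS20, and 4.73% and 3.7% in OBS30. Of 7 neutrophil markers tested out of 10 found, 4 were called higher and 1 (lyz) lower in PFOS20, 0 in OBS20, and 2 higher and 0 lower in OBS30. Their summed level was 119.9 to 147 TPM in PFOS20, 96.1 to 131.4 TPM in OBS20 and 103.9 to 131.8 TPM in OBS30, against 101.7 to 133.4 TPM in control, so all groups overlapped. That sum hides opposite changes, since lyz, the highest of the 7 in control, was at 18.1 to 33.8 TPM in PFOS20 against 47.4 to 76.2 TPM. Among the 4 called higher, srgn was at 35.4 to 44.5 TPM in PFOS20 against 12.95 to 19.1 TPM in control. Of 7 macrophage markers tested out of 13 found, 2 were called higher and 1 lower in PFOS20. In OBS20 0 were called higher and 1 lower, and in OBS30 2 higher and 1 lower. The 1 called lower in PFOS20 was 14.3% of the 7, near the 11.9% of all rows. The macrophage sum was 68.4 to 75.3 TPM in PFOS20, 50.8 to 56.1 TPM in OBS20 and 47.2 to 59.3 TPM in OBS30, against 57.9 to 65.9 TPM in control, so PFOS20 lay above control and OBS20 below it. The macrophage marker mpeg1.1 was listed at 0 in every PFOS20 and OBS30 library and in 2 of 3 OBS20 and 2 of 3 control libraries, and it did not pass the filter. Of 10 lymphocyte markers found, 2 reached the filter, of which rag1 was called lower in PFOS20, and cd8a was listed at 0 in every PFOS20, OBS30 and control library. Of 10 neuron markers, 9 were called lower in PFOS20, 0 in OBS20 and 3 in OBS30, with summed levels of 680.7 to 1047 TPM, 1445 to 1748 TPM and 1342 to 1529 TPM, against 1789 to 1902 TPM in control. Calls on these small lists changed when a library was left out: the 2 neutrophil markers higher in OBS30 became 1 without OBS30 replicate 3 or control replicate 3 or 4, the 2 macrophage markers became 0 or 1 in 10 of 12 such fits, the 3 neuron markers became 1 in 8 of 12, and lyz was not called lower in PFOS20 without PFOS20 replicate 2 or control replicate 2 or 4. The part of these cell types in the SOCS and STAT levels was not tested.

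Genes with the most similar profiles were named for socs3a, socs3b and stat1b, which were called with a log2 change of at least 1. Likeness was the root mean square difference of control-centred log2(TPM + 1) values over the 12 libraries, among 10915 genes with a symbol and a mean of at least 5 TPM in some group. The nearest to socs3b were cbx7a (0.18), thbs1a (0.20) and tgm2l (0.22), with cbx7a at a mean of 77.6 TPM in PFOS20, 24.9 TPM in OBS20 and 64.2 TPM in OBS30, against 23.5 TPM in control. The nearest to stat1b were fstl1a (0.19), gadd45aa (0.20) and pimr51 (0.20), all expressed far above it. At the low level of stat1b this likeness depends on the 1 TPM added before the logarithm. On TPM itself, the stat1b mean in PFOS20 was 11.2 times that of control, while fstl1a was at 35.0 TPM against 12.5 TPM. The nearest to socs3a lay farther off, odc1 at 0.32, trib3 at 0.33 and pgp at 0.34, and none of these had an OBS20 change as low as the -0.62 of socs3a, the lowest being -0.31 for odc1. These distances are descriptions, and profiles of a whole larva share its library and composition.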

How the data were processed

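Poly(A) RNA of zebrafish larvae (total RNA, paired-end Illumina reads), per the labels' protocols, gave 12 libraries. The deposited table holds TPM values for 32520 Ensembl genes and 12147 assembled loci, with the authors' group means, which matched the means of the libraries and were not used. HISAT2, StringTie, RSEM and the build GRCz11 are named in the submitters' processing notes; their versions and settings are not given in the sources used here. TPM holds no counts, so the depth is unknown, no counting interval can be given and strand use is not stated.

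TPM values were tested as log2(TPM + 1) with limma 3.58.1 in R 4.3.3 (trended moderated test, two-sided, all 12 libraries in 1 fit with group as the term) on the 30674 rows with at least 1 TPM in at least 3 libraries. P-values were adjusted by Benjamini-Hochberg within each of the 5 comparisons and called under 0.05. Fold changes on this scale understate changes of low genes. Paralogue ratios used TPM + 0.1 and exact permutation tests. The fit was tested on simulated data. List genes were matched by table symbol, or else by the reference name of their ID; where a symbol had several rows (il4r.1, hp), the row with the highest mean was used. From each list the text names up to 2 called genes per direction with the greatest change and no overlap in PFOS20 and in OBS30, and 1 in OBS20; other list genes named were chosen after their values were seen. Members and lists were chosen with earlier results of these data known. Alternatives were a replicate block, each library left out, fits of the compared libraries alone, median-of-ratios scaling, quantile normalisation, TPM + 0.1, and testing all rows or those averaging 5 TPM or more; jak1 summed with its assembled locus was chosen after seeing the data.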

Additional observations from a re-analysis of the deposited data

How the results depend on the processing

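Several alternatives could not change a direction. A changed filter, a fit of the compared libraries alone, or leaving out a library of a group not compared leaves the log2 change of a gene as it was. Counting these, and the jak1 sum chosen after seeing the data, there were 895 comparisons of a single JAK, STAT or SOCS gene under an alternative. Of the 895, 845 kept their direction and their side of the threshold, 12 gained a call and 10 lost one. In the other 28 a value that was not called took the opposite sign and was again not called. With quantile normalisation these were jak2b in PFOS20 (0.052), socs3b in OBS20 (0.031) and socs1a in OBS30 minus OBS20 (-0.077), and with median-of-ratios scaling the same 3 (0.044, 0.048 and -0.076) and stat1a in OBS30 minus OBS20 (-0.004). Leaving out each library in turn gave, in OBS20 minus control, -0.46 to 0.48 for jak1, -0.247 to 0.088 for jak2a, -0.038 to 0.145 for jak2b, -0.071 to 0.203 for socs1a, -0.137 to 0.11 for socs3b, -0.032 to 0.349 for stat1a and -0.64 to 0.29 for stat3. In OBS30 minus control it gave -0.093 to 0.023 for jak2b and -0.026 to 0.248 for socs1a, in OBS20 minus PFOS20 -0.77 to 0.17 for jak1 and -0.294 to 0.088 for stat1a, and in OBS30 minus OBS20 -0.22 to 0.11 for jak2a, -0.168 to 0.016 for jak2b, -0.006 to 0.074 for socs1a and -0.075 to 0.307 for stat1a. The causes were not tested. The count of genes called lower in PFOS20 than in control, 0 in the report, was 1 (jak2a) with a mean of at least 5 TPM, with quantile normalisation, with median-of-ratios scaling and in a fit of the 6 libraries compared. In OBS20 minus PFOS20 the count called higher was 1 in place of 0 with median-of-ratios scaling, and the count called lower was 2 in place of 4 in a fit of the 6 libraries. In OBS30 minus OBS20 the count called higher was 1 in place of 2 in a fit of the 6 libraries. Leaving out each library in turn gave 0 to 1 genes called lower in PFOS20 than in control, and in OBS20 minus PFOS20 0 to 1 called higher and 2 to 4 called lower. The other counts were the same in every fit with a library left out: 4 called higher in PFOS20, 3 in OBS30 and 2 in OBS30 minus OBS20. Under other alternatives the genes called higher did change. In PFOS20 stat1a gained a call with quantile normalisation and with median-of-ratios scaling, and jak1 when summed with its assembled locus. In OBS30 socs3a lost its call with median-of-ratios scaling (adjusted p = 0.055), and stat1b with the replicate block (adjusted p = 0.059). With 1 TPM in place of 0.1 TPM added, the stat1b to stat1a ratio differed from control by 1.13 in PFOS20 (exact permutation p = 0.1), 0.29 in OBS20 (exact p = 0.4) and 0.82 in OBS30 (exact p = 0.1). These ratios are no support, since stat1b passed the filter only through the PFOS20 and OBS30 libraries. stat1b has no value among rows with a mean of at least 5 TPM, so counts there leave it out.

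No pairing by replicate number was seen in deviations from group means: of 13 same-numbered pairs, 1 had deviations correlated over 0.1 (range -0.11 to 0.10). Such correlations over all rows can be set by library-wide shifts, so they cannot exclude shared clutches or batches. With the number as a replicate block, 2 calls of the 9 genes were lost, stat1b in OBS30 (1.05, adjusted p = 0.059) and socs1a in OBS20 minus PFOS20 (-0.81, adjusted p = 0.074). The 24 pathway genes called higher in OBS30 became 11 with the block, and the 1450 of all rows became 660. Of the STAT3-linked genes in OBS20, the 1 called higher and the 3 called lower both became 0 with the block.

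The scaling sets the balance of all calls: in PFOS20 34.7% of called rows were higher, against 48.3% with quantile normalisation and 49.2% with median-of-ratios scaling, in OBS20 45.8% against 57.7% with quantile normalisation, and in OBS30 minus OBS20 70.5% against 56.0%. Over the pathway lists, 45 and 44 genes were called higher in PFOS20 with these scalings, against 31. Over all rows tested, 3802 and 3506 were called higher with them, against 1947. Among rows with a mean of at least 5 TPM, a smaller set, 22 pathway genes were called higher, beside 1544 of all 14503 such rows. TPM carries no depth, so low genes such as stat1b have unknown counting error.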
